A study of Mus musculus with 20 samples.

Results

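The Hedgehog pathway genes examined here were the 3 ligand genes Shh, Ihh and Dhh, the receptor gene Ptch1, the transducer gene Smo, the inhibitor gene Hhip and the transcription factor genes Gli1, Gli2 and Gli3. These 9 genes, of 21627 protein-coding gene symbols in the annotation, were chosen by name, with earlier results of these data known. Occupancy by Suz12 was read from chromatin immunoprecipitation and sequencing (ChIP-seq) of the wild-type mouse embryonic stem cell line E14, kept on gelatin in medium with serum and leukemia inhibitory factor (LIF). The 4 groups were cells after 12 h of DRB at 100 µM against the DRB series at 0 h, and cells after 9 h of triptolide at 10 µM against the triptolide series at 0 h, with 2 libraries in each group. The other 12 of the 20 samples were not analysed here. Overlapping peaks of the 8 lists were merged into 11943 regions, and a region belonged to a gene if it lay within 1 kb of either annotated end on mm10. By this rule 8 of the 9 genes had 1 region each, and Gli1 had none.

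Hedgehog ligands are secreted proteins that set cell fates in the embryo by their concentration. Without ligand, Patched keeps Smoothened inactive, and Gli proteins, above all Gli3, are cut into repressors of target genes. Ligand binding to Patched frees Smoothened, full-length Gli2 acts as the main activator, and Ptch1, Hhip and Gli1 are themselves switched on as targets, the first pair restraining the signal. Suz12 belongs to the core of Polycomb repressive complex 2 (PRC2), the enzyme complex that methylates lysine 27 of histone H3. In embryonic stem cells PRC2 sits on CpG-rich starts of developmental genes that are silent or barely transcribed. DRB blocks the kinases that release paused RNA polymerase II into elongation, and triptolide blocks initiation through a subunit of TFIIH. The comparisons asked how Suz12 at the Hedgehog genes differed after transcription had been inhibited.

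Under both drugs Suz12 at the Hedgehog genes moved in opposite directions. Over the mean of both drugs, the Gli2 and Gli3 regions rose and the Shh, Ihh and Dhh regions fell, while Ptch1 at its annotated end, Smo and Hhip did not pass the test. The count was therefore 2 higher and 3 lower of 8 regions at an adjusted p under 0.05 (edgeR quasi-likelihood test with Benjamini-Hochberg adjustment over all 11943 regions). The Gli2 region entered through peaks of treated lists alone, so its higher call comes in part with the way it was found. Among all regions 28.0% were called higher and 28.9% lower, so calls in either direction were common. Among the 4281 regions with a peak in all 8 lists (the kept regions), which include all of the 8 but Gli2, 10.3% were higher and 59.1% lower. The median log2 change was -0.22 over the 8 Hedgehog regions and 0.05 over all regions. Levels below are counts per 1e6 reads over the regions (CPM), scaled by trimmed mean of M values (TMM). They are relative, and less Suz12 per cell and fewer cells with Suz12 at a site cannot be told apart. The direction of Dhh, Ptch1 and Hhip turned when libraries were scaled to the kept regions, which raised the median log2 change of all regions to 0.41. Under that scaling 3 Hedgehog regions were higher (Smo, Gli2 and Gli3) and 2 lower (Shh and Ihh), beside 49.2% and 10.7% of all regions, and 4 of the 5 calls were shared with the TMM scaling.

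Before the values, the sequences of 4 promoters are shown because Suz12 rose at Gli2 and Gli3, a second region over Ptch1 is described below, and Ihh had the densest signal of the 8 regions in untreated cells. They run from 250 bases before to 50 bases after an annotated start on GRCm38.p6, from RefSeq, written 5′ to 3′ with every CpG in capitals.
Gli2 promoter, chr1:119053570-119053869, minus strand: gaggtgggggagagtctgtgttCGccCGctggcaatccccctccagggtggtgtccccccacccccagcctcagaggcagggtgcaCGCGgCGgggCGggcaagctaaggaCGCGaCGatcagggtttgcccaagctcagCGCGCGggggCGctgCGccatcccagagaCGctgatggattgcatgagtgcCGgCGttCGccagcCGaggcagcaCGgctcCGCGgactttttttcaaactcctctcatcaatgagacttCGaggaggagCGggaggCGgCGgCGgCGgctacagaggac
Gli3 promoter, chr13:15463473-15463772, plus strand: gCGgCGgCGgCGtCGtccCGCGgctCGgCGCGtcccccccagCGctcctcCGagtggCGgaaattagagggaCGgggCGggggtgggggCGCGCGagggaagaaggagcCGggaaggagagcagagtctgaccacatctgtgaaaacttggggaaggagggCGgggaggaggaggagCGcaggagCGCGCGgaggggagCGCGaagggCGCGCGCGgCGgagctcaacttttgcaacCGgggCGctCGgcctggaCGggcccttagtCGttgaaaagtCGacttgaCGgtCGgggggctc
Ptch1 promoter, chr13:63565686-63565985, minus strand: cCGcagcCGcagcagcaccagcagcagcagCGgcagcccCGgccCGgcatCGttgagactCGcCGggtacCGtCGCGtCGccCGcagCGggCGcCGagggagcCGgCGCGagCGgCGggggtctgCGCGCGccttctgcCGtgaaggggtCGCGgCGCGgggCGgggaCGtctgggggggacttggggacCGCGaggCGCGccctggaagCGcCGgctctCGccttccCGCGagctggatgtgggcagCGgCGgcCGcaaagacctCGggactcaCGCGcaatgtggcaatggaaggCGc
Ihh promoter, chr1:74951623-74951922, minus strand: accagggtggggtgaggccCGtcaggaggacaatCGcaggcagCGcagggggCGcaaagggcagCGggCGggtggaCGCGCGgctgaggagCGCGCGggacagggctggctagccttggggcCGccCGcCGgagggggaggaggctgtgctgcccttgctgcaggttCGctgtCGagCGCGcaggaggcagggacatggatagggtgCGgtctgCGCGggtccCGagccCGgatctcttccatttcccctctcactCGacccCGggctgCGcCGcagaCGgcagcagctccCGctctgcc

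These windows were dense in CpG, the dinucleotide that is rare in most of the mouse genome. The Ptch1 window held 47 CpG, Gli3 held 39, Ihh and Hhip 30 each, Gli2 28, Smo 17 and Dhh 12, while the median of 32841 promoter windows was 7. Their GC content was 61.7% to 76.3%, against a median of 52.7%. The observed over expected CpG ratio was highest at Gli3 with 1.12 and Ptch1 with 1.09, and lowest at Dhh with 0.438, against a median of 0.384. RefSeq windows were at hand for 7 of the 9 genes, and all 7 lay wholly inside a Suz12 region. Gli2, whose region had no peak in untreated cells, was not set apart from the bound genes by its CpG number. The letters GACCACCCA or their reverse complement TGGGTGGTC, the sequence that Gli proteins recognise, were found in none of the 7 windows on either strand and in 0.253% of all windows.

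**Figure D1:**
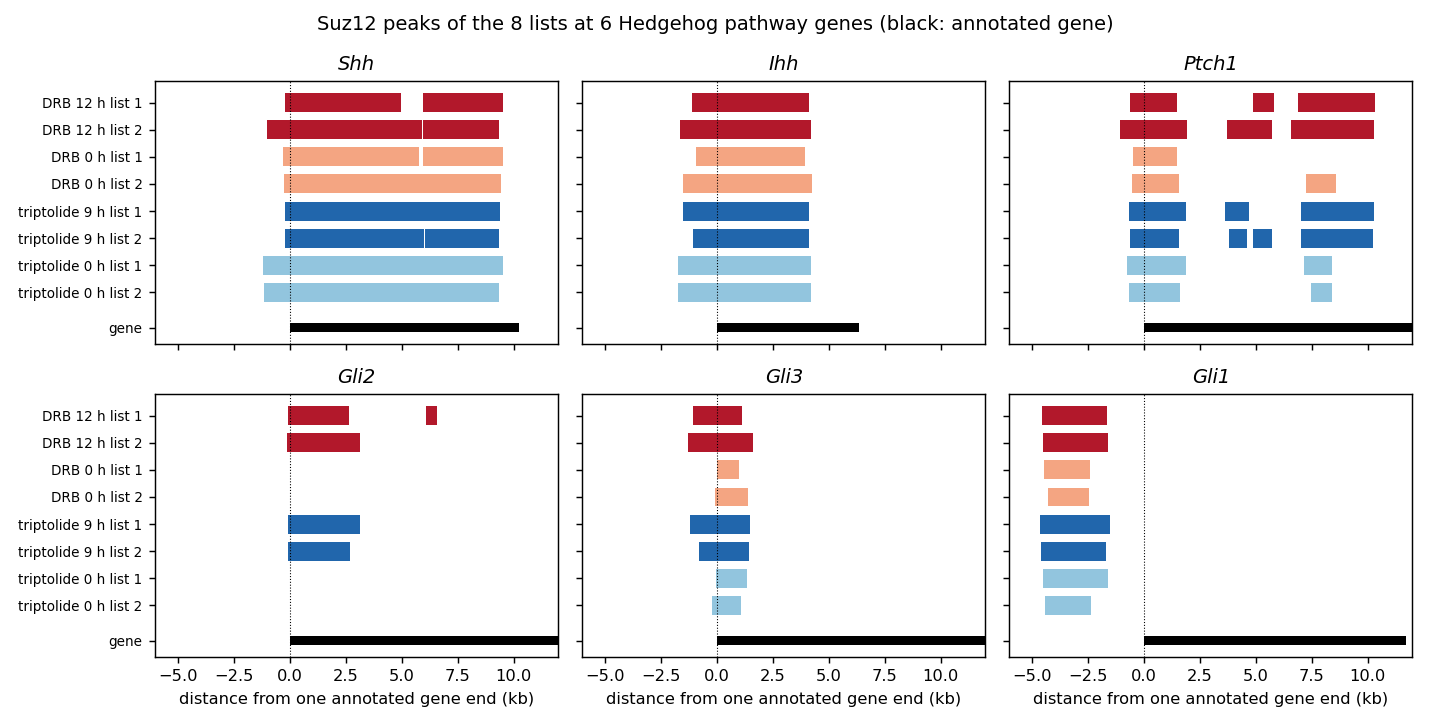
Suz12 peaks of the 8 lists at 6 Hedgehog genes, with the distance in kb from 1 annotated end of each gene on the x axis (positive into the gene) and 1 row per list on the y axis, treated lists above untreated ones. Peaks lay over most of the length of Shh and over a large part of Ihh in every list, Gli2 had a peak in the 4 treated lists alone, Gli3 peaks were longer in treated lists, and the peaks nearest to Gli1 lay outside it.

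Peaks were present at the ends of 7 of the 9 genes in all 8 lists. The treated lists held 7153 to 10929 peaks each and the untreated lists 5116 to 6886. Over the whole annotation 36.8% of genes had a peak in at least 1 list, and 37.7% of those had one in all 8. Gli2 had a peak in the 4 treated lists and in none of the 4 untreated ones, a pattern found in 10.9% of genes with any peak. Windows of 0.5 kb gave the same 7 genes in all 8 lists, and windows of 2.5 kb gave 8, since they reached the peaks beside Gli1. With peaks under the median width of 1357 bp left out, 5 genes remained in all 8 lists, namely Shh, Ihh, Dhh, Ptch1 and Smo.

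The regions differed in breadth and in signal per length. The Shh region at chr5:28457555-28468289 was 10735 bp long and covered 93.0% of the length of the gene. The Ihh region at chr1:74947418-74953404 was 5987 bp long and covered 66.9% of its gene. The Dhh region at chr15:98892893-98899066 was 6174 bp long and covered 33.5% of its gene. All 3 ligand genes thus carried Suz12 over a large part of their length, whereas the 5 other regions were 1884 to 3281 bp long and covered 0.609% to 8.31% of their genes.

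In untreated cells the Ihh region had the highest level per length with 146 CPM per kb, followed by Shh with 125, Dhh with 119, Ptch1 with 82.2, Smo with 47.0, Hhip with 43.0, Gli3 with 31.1 and Gli2 with 8.36 CPM per kb. The library values of Ihh and Shh, of Shh and Dhh, and of Smo and Hhip overlapped, so the order within these pairs is not firm. Among the 4281 kept regions, the 3 ligand genes lay at the 93.5th to 98.3rd percentile of untreated level per length, and Gli3 at the 3.69th. Ligand genes were thus among the denser Suz12 sites of these cells and Gli3 among the thinnest that were still called in every list. In treated cells the order was Dhh with 98.1 CPM per kb, Ihh with 96.2, Ptch1 with 70.7, Shh with 68.0, Smo with 49.9, Gli3 with 45.1, Hhip with 37.2 and Gli2 with 34.3. Here the library values overlapped between Dhh and Ihh, between Ptch1 and Shh, and from Smo through Gli3 and Hhip to Gli2. The highest and the lowest region were closer together in treated cells than in untreated cells.

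Shh, the ligand of the notochord, floor plate and limb bud, showed the largest fall. Its region had 751.4 and 684.9 CPM after DRB, against 1405 and 1231 CPM at DRB 0 h. After triptolide it had 722.6 and 752.2 CPM, against 1309 and 1421 CPM at triptolide 0 h. Every treated library stood below every untreated one, as in 25.2% of all regions. The log2 change was -0.88 ± 0.08 (SE) over both drugs, a fold of 0.543 (edgeR, adjusted p = 4e-06). It was -0.88 ± 0.11 for DRB (adjusted p = 0.000195) and -0.89 ± 0.11 for triptolide (adjusted p = 0.000158). Among kept regions this change stood at the 4.56th percentile. With libraries scaled to the kept regions it was -0.51 ± 0.06 (adjusted p = 2.59e-05). Peak length at Shh had a median of 9552 bp in treated lists and 10083 bp in untreated lists, and the 2 ranges overlapped. The gene 9530036O11Rik also lay within 1 kb of this region, so the counts may not be those of Shh alone.

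Ihh, the ligand of growing cartilage and gut, fell less. Its region had 705.8 and 523.3 CPM after DRB, against 945.0 and 783.8 CPM at DRB 0 h. Triptolide-treated libraries had 535.0 and 524.5 CPM, against 799.7 and 937.4 CPM at triptolide 0 h. The treated libraries were all below the untreated ones, although the higher DRB 12 h library came within the spread between untreated libraries of the lowest of them. The log2 change was -0.60 ± 0.10 over both drugs (edgeR, adjusted p = 0.000401), -0.49 ± 0.15 for DRB (adjusted p = 0.0207) and -0.71 ± 0.15 for triptolide (adjusted p = 0.00267). Scaled to the kept regions, it was -0.23 ± 0.09 over both drugs (adjusted p = 0.0435), and neither drug passed alone, with adjusted p = 0.351 for DRB and 0.0701 for triptolide. In that scaling 4.78% and 4.75% of all regions were called lower by DRB and by triptolide. The DRB call was lost as well when scaled to the sum of all counts, with -0.33 (adjusted p = 0.0534). In the fit over the widest untreated peak both calls were lost, with -0.20 for DRB (adjusted p = 0.307) and -0.37 for triptolide (adjusted p = 0.0714). The Ihh counts were the same there, since its widest peak, of 5949 bp, came from an untreated list. That fit computed TMM over regions with an untreated peak alone. The DRB call was also lost without the DRB 12 h library of index TGACCA, with a log2 change of -0.32 (adjusted p = 0.10), and without the DRB 0 h library of index ATCACG, with -0.36 (adjusted p = 0.15).

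Dhh, the ligand of testis and peripheral nerve sheath, had the smallest difference of the 3 ligands. It had 568.2 and 597.3 CPM after DRB, against 711.7 and 655.5 CPM at DRB 0 h. With triptolide the region had 607.5 and 606.5 CPM, against 725.1 and 794.5 CPM at triptolide 0 h. The groups did not overlap, but the treated and untreated values lay close together. Its log2 change was -0.28 ± 0.07 over both drugs (edgeR, adjusted p = 0.00677), -0.23 ± 0.10 for DRB (adjusted p = 0.104) and -0.32 ± 0.10 for triptolide (adjusted p = 0.0254). Its direction depended on the scaling, since it was 0.09 ± 0.06 (adjusted p = 0.221) when scaled to the kept regions and -0.07 ± 0.06 (adjusted p = 0.321) when scaled to the sum of all counts. The triptolide call was lost without any one of the 4 triptolide libraries (log2 change -0.39 to -0.26), and the DRB change passed with the index as a covariate, with -0.22 (adjusted p = 0.0459). The median log2 change of kept regions was -0.38, so Shh and Ihh fell by more than the typical kept region and Dhh by less.

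**Figure D2:**
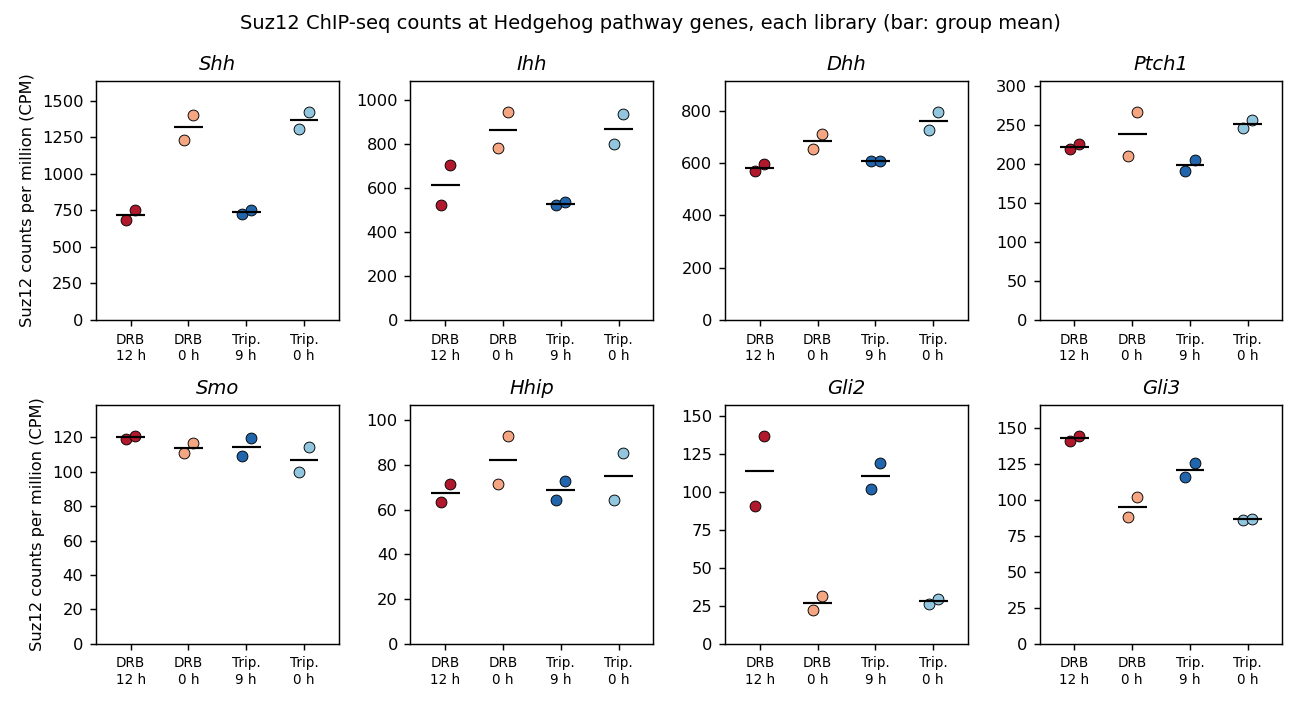
Suz12 level of each Hedgehog region in each library, in TMM-scaled CPM on the y axis from 0, with 1 panel per gene. On the x axis each drug's treated group stands left of its 0 h group (Trip. is triptolide), with 2 points a group and a bar at the group mean. All treated points are below all untreated ones at Shh, Ihh and Dhh and above them at Gli2 and Gli3, and the points overlap at Ptch1, Smo and Hhip.

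Ptch1 encodes the receptor that holds Smoothened inactive and is a standard target of the pathway. Its region by the rule, chr13:63571525-63574497, lay at the upper annotated end, within 1 kb of the gene LOC102632415. It had 219.7 and 225.0 CPM after DRB, against 266.3 and 210.4 CPM at DRB 0 h. After triptolide it had 204.8 and 191.5 CPM, against 256.0 and 245.5 CPM at triptolide 0 h. The DRB groups overlapped and the triptolide groups did not. The log2 change of -0.21 ± 0.09 did not pass over both drugs (edgeR, adjusted p = 0.0701), nor did -0.08 ± 0.13 for DRB (adjusted p = 0.643) or -0.34 ± 0.13 for triptolide (adjusted p = 0.0541). Over both drugs it passed without the DRB 0 h library of index TGACCA, with -0.30 (adjusted p = 0.0216). The triptolide change passed without the DRB 12 h library of index ATCACG (adjusted p = 0.0499) or either DRB 0 h library (adjusted p = 0.0362 and 0.0359), whose spread enters the same fit. With the index as a covariate the change passed over both drugs, with -0.20 (adjusted p = 0.0248), and for triptolide, with -0.34 (adjusted p = 0.0117). Over both drugs the change was 0.16 when scaled to the kept regions.

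A separate region over Ptch1, at chr13:63563141-63566897, lay inside the annotated gene, beyond 1 kb of its ends, and held the RefSeq promoter window printed above. It is outside the rule and was described after its values had been seen. It had 219.3 and 254.8 CPM after DRB, against 68.21 and 87.76 CPM at DRB 0 h. After triptolide it had 214.7 and 182.5 CPM, against 73.97 and 68.58 CPM at triptolide 0 h. Every treated library stood above every untreated one, a pattern found in 24.4% of all regions. The log2 change was 1.52 ± 0.11 (edgeR, adjusted p = 1.58e-06), and 1.89 ± 0.12 when scaled to the kept regions. Peaks there were 3225 to 3734 bp long in the 4 treated lists, against at most 1350 bp in the untreated lists, of which 3 had a peak. Whether these lengths followed the larger number of peaks in treated lists was not tested. Another region between this one and the gene end, chr13:63567634-63569809, had a peak in the 4 treated lists alone. It had 25.21 to 30.65 CPM in treated libraries and 13.72 to 18.64 CPM in untreated ones (log2 change 0.74 ± 0.16, edgeR, adjusted p = 0.0021). Since it entered the table through treated lists alone, higher counts in treated libraries come in part with the way it was found. Under TMM scaling both inner regions were thus called higher, while the one at the rule's gene end was called in neither direction. When scaled to the kept regions the gene end had 0.16 and the inner regions 1.89 and 1.1, so opposite directions cannot be stated. The region at the gene end did not show the size of change found inside the gene.

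Smo, the transducer at the cell surface, had its region at chr6:29735124-29737645. It had 119.2 and 120.9 CPM after DRB, against 116.7 and 111.1 CPM at DRB 0 h. After triptolide it had 109.4 and 119.5 CPM, against 99.78 and 114.4 CPM at triptolide 0 h. Treated and untreated libraries overlapped, and the log2 change of 0.09 ± 0.10 did not pass (edgeR, adjusted p = 0.444). It was called higher, with 0.46 ± 0.09 (adjusted p = 0.0013), when scaled to the kept regions, and with 0.29 ± 0.09 (adjusted p = 0.0187) when scaled to the sum of all counts, a scaling that called 39.0% of all regions higher and 18.7% lower. In the fit over the widest untreated peak it was higher as well, with 0.44 ± 0.09 (adjusted p = 0.00315). Scaled to the kept regions, each drug passed alone, with 0.41 for DRB (adjusted p = 0.0287) and 0.50 for triptolide (adjusted p = 0.00918).

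Hhip encodes a membrane protein that binds and sequesters all Hedgehog ligands. Its region at chr8:80056880-80058763 had 63.22 and 71.35 CPM after DRB, against 71.50 and 92.94 CPM at DRB 0 h. Triptolide-treated libraries had 72.98 and 64.31 CPM, against 85.44 and 64.25 CPM at triptolide 0 h. The groups overlapped under both drugs. On the log2 scale the change was -0.22 ± 0.13 (edgeR, adjusted p = 0.166), and 0.14 ± 0.14 (adjusted p = 0.393) when scaled to the kept regions, so no direction can be given.

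Gli2, the main activator among the Gli factors, had the largest change of the 8 regions. Its region at chr1:119051242-119054522 held 90.83 and 137.1 CPM after DRB, against 22.19 and 31.53 CPM at DRB 0 h. After triptolide it held 119.3 and 102.4 CPM, against 29.53 and 26.35 CPM at triptolide 0 h. The lowest treated library was above the highest untreated one by a wide gap. This was a log2 change of 2.01 ± 0.16 over both drugs, a fold of 4.01 (edgeR, adjusted p = 2.62e-06), with 2.03 ± 0.23 for DRB (adjusted p = 0.00013) and 1.98 ± 0.22 for triptolide (adjusted p = 0.000108). This lay at the 99.8th percentile of all regions. The region entered the table through peaks of treated lists alone, so higher counts in treated libraries come in part with the way it was found. Its untreated level of 8.36 CPM per kb was at the 1.41st percentile of all regions. The untreated values rest on 27 to 134 reads, and the treated ones on 227 to 1091 reads. Peaks in the treated lists were 2742 to 3277 bp long. A short second region of 516 bp inside Gli2 had a peak in 1 treated list and did not pass (log2 change 0.72 ± 0.31, adjusted p = 0.0668).

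Gli3, the main source of Gli repressor, already carried Suz12 in untreated cells and gained more. Its region at chr13:15462425-15465344 had 144.4 and 141.0 CPM after DRB, against 87.93 and 102.1 CPM at DRB 0 h. After triptolide it had 116.1 and 125.7 CPM, against 86.59 and 86.27 CPM at triptolide 0 h. All treated libraries were above all untreated ones. The log2 change was 0.53 ± 0.10 over both drugs, a fold of 1.44 (edgeR, adjusted p = 0.000628), with 0.57 ± 0.14 for DRB (adjusted p = 0.00783) and 0.48 ± 0.14 for triptolide (adjusted p = 0.0137). Without any one of the 4 triptolide libraries the triptolide call was lost, with log2 changes of 0.46 to 0.56 and adjusted p from 0.0508 to 0.104. Scaled to the kept regions, the change over both drugs was 0.89 ± 0.10. Peaks at Gli3 were 2155 to 2920 bp long in treated lists and 975 to 1474 bp in untreated lists, so the 2 ranges did not overlap. The treated lists also held more peaks in all, and whether peak length here followed that was not tested. The gene Gm6556 also lay within 1 kb of the region.

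Gli1, the Gli gene switched on by the pathway itself, had no region within 1 kb of its ends in any list. The nearest region, chr10:127325263-127328394, lay 1488 bp below its lower end, within 1 kb of Arhgap9, and had a peak in all 8 lists. It had 283.7 and 237.2 CPM after DRB, against 254.8 and 155.8 CPM at DRB 0 h, and 225.1 and 200.4 CPM after triptolide, against 201.6 and 185.9 CPM at triptolide 0 h. These values overlapped, and the log2 change of 0.25 ± 0.13 did not pass (edgeR, adjusted p = 0.122). It passed when scaled to the kept regions, with 0.62 ± 0.13 (adjusted p = 0.00123), when scaled to the sum of all counts, with 0.46 ± 0.12 (adjusted p = 0.00794), when counted over the widest untreated peak, with 0.57 (adjusted p = 0.00587), and with the index as a covariate, with 0.27 (adjusted p = 0.00773). It also passed without the DRB 12 h library of index TGACCA or the DRB 0 h library of index ATCACG, with 0.33 (adjusted p = 0.0477) and 0.43 (adjusted p = 0.00641). Whether this Suz12 belongs to Gli1 or to its neighbour cannot be told from position.

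**Figure D3:**
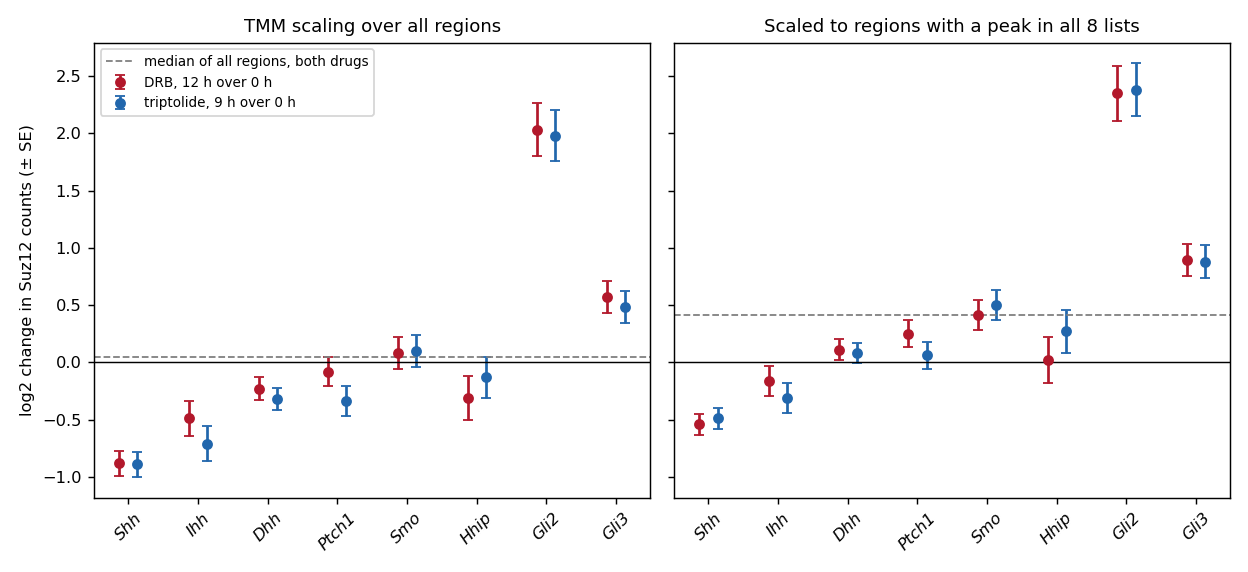
Log2 change of Suz12 counts at each Hedgehog region for DRB (12 h over 0 h) and triptolide (9 h over 0 h), with bars of ± 1 SE from edgeR, scaled by TMM in the left panel and to the kept regions in the right panel. The dashed line is the median of all 11943 regions. In both panels Shh and Ihh lie below 0 and Gli2 and Gli3 above 0 under either drug, while Dhh lies below 0 on the left and above 0 on the right.

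For DRB alone, 2 regions were higher (Gli2 and Gli3) and 2 lower (Shh and Ihh), beside 18.0% and 19.2% of all regions. For triptolide alone, 2 were higher and 3 lower, beside 19.3% and 21.9%. The DRB change minus the triptolide change was between -0.18 ± 0.26 at Hhip and 0.26 ± 0.19 at Ptch1, and none passed (edgeR, adjusted p = 0.999 at each of the 8 regions). Of all regions 0.0167% differed between the drugs in this test. The DRB libraries can also be compared within an index, with 1 library on either side and no test. For index ATCACG and index TGACCA, the log2 ratio of DRB 12 h over DRB 0 h was -0.90 and -0.85 at Shh, -0.42 and -0.58 at Ihh, 2.03 and 2.12 at Gli2, and 0.72 and 0.46 at Gli3. These pairs showed the direction of the pooled value. At Ptch1 the ratios were -0.28 and 0.10, so the pairs differed in direction, while Dhh had -0.32 and -0.13, Hhip -0.18 and -0.38, and Smo 0.03 and 0.12. All triptolide libraries carried index TGACCA. The DRB and triptolide arms also differed in duration, 12 h against 9 h, so drug and time cannot be told apart.

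**Figure D4:**
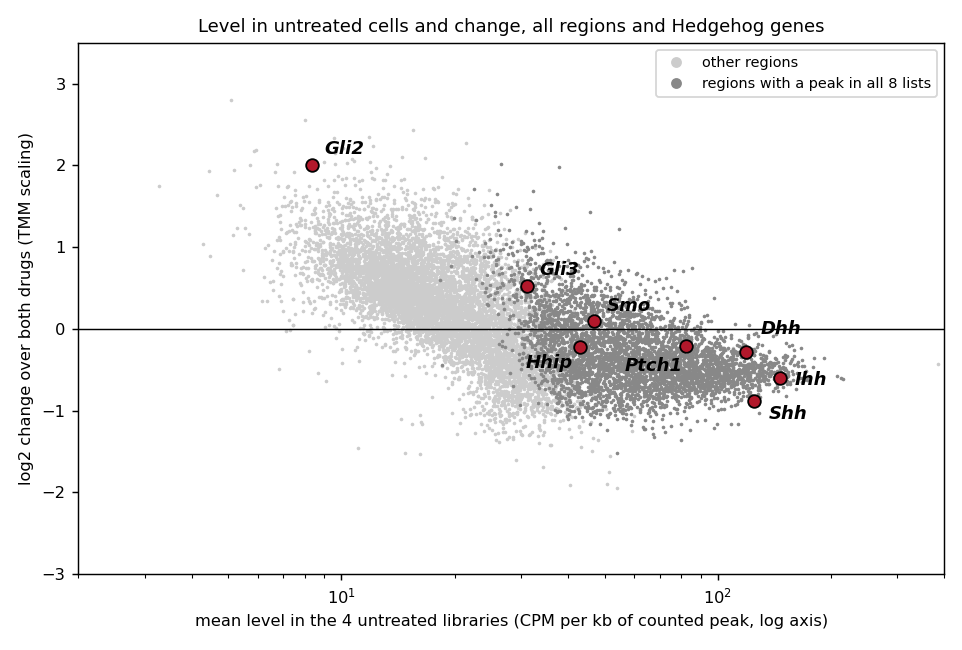
Log2 change over both drugs on the y axis against the untreated Suz12 level in CPM per kb on a logarithmic x axis, for all regions (grey) and the 8 Hedgehog regions (labelled). The ligand genes are at the dense end with values below 0 and Gli2 and Gli3 are at the thinner end with values above 0. Both axes use the same untreated libraries.

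The order of the changes followed the order of untreated levels only in part. Gli2 and Gli3, with the lowest untreated levels per length, were the regions that rose, and the 3 densest regions were those that fell. Dhh, at 119 CPM per kb, changed by less than Shh at 125 CPM per kb, although their untreated levels per length were similar. Because the untreated libraries enter both measures, low untreated values and high changes go together in part by construction. Together the 8 regions took 0.269% to 0.275% of all counted reads in treated libraries and 0.311% to 0.333% in untreated ones.

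A wider list of 41 pathway genes, chosen by role, had 31 genes with a region. Of these 31, 9 were higher and 11 lower over both drugs at the same threshold, near the shares of all regions (28.0% and 28.9%), and their median log2 change was -0.11. Evc and Evc2, both among the higher genes, share 1 region that is counted for each. Among 12 genes known as targets or effectors of the pathway in development, all with a region, 9 fell and 1 rose, with a median of -0.56. All but 1 of the 12 had peaks in all 8 lists, and 59.1% of the kept regions were called lower and 10.3% higher. Foxl1, Hand2, Pax9 and Nkx2-2, all transcription factor genes of embryonic patterning, were among those with the largest falls. Foxl1 averaged 366.3 ± 9.05 CPM in treated and 587.3 ± 32.5 CPM in untreated libraries (SD, n = 4 each), a log2 change of -0.68 ± 0.08 (edgeR, adjusted p = 2.66e-05). Nkx2-2, a gene of the ventral neural tube, averaged 772.8 ± 60.3 CPM in treated and 1166 ± 65.4 CPM in untreated libraries, a log2 change of -0.59 ± 0.08 (adjusted p = 6.27e-05). Hand2 and Pax9 changed by -0.63 ± 0.08 (adjusted p = 3.92e-05) and -0.62 ± 0.08 (adjusted p = 4.56e-05). The exception was Ccnd1, the gene of cyclin D1, which averaged 388.0 ± 24.1 CPM in treated and 151.2 ± 20.5 CPM in untreated libraries, a log2 change of 1.37 ± 0.11 (adjusted p = 2.34e-06). Scaled to the kept regions, 7 of these 12 genes fell and 3 rose, beside 10.7% and 49.2% of all regions.

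Among 18 genes that act between Smoothened and the Gli proteins, in the cytoplasm or the primary cilium, 9 had a region. Of these 9, 7 rose and none fell, beside 28.0% and 28.9% of all regions, with a median log2 change of 0.49. The DESeq2 Wald test called 4 of them higher, as did the edgeR test without replicate 2 of triptolide 9 h. Of the 9, 6 had no peak of an untreated list near their ends. Evc2 is among them but shares 1 region with Evc, which had a peak in 1 untreated list. The rise of that region is thus counted for both genes, while the shares of all regions count each region once. The others had peaks of treated lists alone near their ends, so higher counts in treated libraries come in part with the way they were found. Prkaca encodes the catalytic subunit of protein kinase A, which phosphorylates Gli proteins. It averaged 129.4 ± 38.2 CPM in treated and 47.95 ± 10.6 CPM in untreated libraries, a log2 change of 1.44 ± 0.16 (edgeR, adjusted p = 2.02e-05). Its region also lay within 1 kb of Samd1. Among 6 genes of cell surface proteins that bind ligand, 5 had a region. Lrp2 rose, with 177.4 ± 10.5 CPM in treated and 95.07 ± 12.0 CPM in untreated libraries (log2 change 0.92 ± 0.10, adjusted p = 2.34e-05), and Gas1 fell, with -0.33 ± 0.12 (adjusted p = 0.0287). Among 5 genes of ligand production and release, Scube2 alone passed, with -0.25 ± 0.10 (adjusted p = 0.0407), and none was called lower with the replicate block or by the DESeq2 Wald test. When scaled to the kept regions, neither Gas1 nor Scube2 passed, with changes of 0.04 and 0.12. In the fits without 1 library, 0 to 2 genes of each of these lists were called lower.

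Depth over the regions ranged between 1323927 reads, in the DRB 0 h library of index ATCACG, and 7340017 reads, in the DRB 12 h library of index TGACCA. The chi-square statistic between replicates, divided by its degrees of freedom, was 2.47 to 8.65 and highest at DRB 12 h, so replicates varied by more than counting error. At the Hedgehog regions the reads per base were at most 0.784, and at most 1.38 over all regions. Whether duplicate reads had been removed is not given in the sources used here, and its part in the fall of dense regions was not tested. In the column names no lane number held both treated and untreated libraries, so lane and treatment cannot be told apart. Of 7 genes that mark embryonic stem cells, none had a peak in an untreated list and 2 had peaks in all 4 treated lists alone. By contrast, 3 of 4 primitive endoderm genes, 3 of 3 mesoderm genes, 3 of 3 neural genes and 1 of 3 fibroblast genes had peaks in all 8 lists. Suz12 occupancy is not a measure of expression, and the cell type was not checked further.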

How the data were processed

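Suz12 ChIP-seq of wild-type E14 embryonic stem cells was used in 8 libraries, 2 in each of 4 groups. Reads were aligned with Bowtie and peaks called with MACS on mm10 (GRCm38), per the submitters' processing notes. A version, or a removal of duplicates, is not given in the sources used here. The deposited lists hold the peaks of 1 library each and, per the file headers, raw read counts over those peaks, without normalization. Of their 13 count columns, 8 were matched to groups by name and 5 were not used. DRB columns carry an index and no replicate number of the labels, so DRB counts are named by index. Nothing in the labels says whether replicates came from separate cultures, so p-values measure the spread between these samples, which may be technical.

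Peaks overlapping by 1 bp were merged into 11943 regions, and each region took the counts of the widest peak in it. Testing used edgeR 4.0.16 in R 4.3.3 (quasi-likelihood, TMM scaling, 4 groups, no filter), for each drug, the mean of both and their difference, with Benjamini-Hochberg adjustment over all regions at 0.05. SE is the log2 change divided by the square root of F. DESeq2 1.42.0, other scalings, a filter of 10 counts in 2 libraries, counts over the widest untreated peak, a replicate block and leaving out each library were alternatives, and the index as a covariate was added after seeing the data. On simulated data the test over both drugs, run on 11943 regions with 200 changed, found 53.7% of changes of 1.5-fold. For changes of 2-fold and 3-fold the shares were 94% and 100%, and 11 unchanged regions were called.

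All 9 Hedgehog genes are named, and of the wider list the 4 called regions with the largest rises and the 4 with the largest falls, beside Gas1, Scube2, Evc and Evc2, and the regions inside Ptch1 and Gli2 and near Gli1, which were chosen after their values were seen. One gene that this rule takes is not reported here. The members and lists were chosen with earlier results of these data known. Promoter windows came from RefSeq on GRCm38.p6. Figures were drawn with matplotlib 3.10.9.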

Additional observations from a re-analysis of the deposited data

How the results depend on the processing

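Shh, Ihh, Gli2 and Gli3 kept their direction and their call over both drugs under every alternative in which they could be fitted (Gli2 has no untreated peak and so no value over untreated peaks). The scaling moved the counts over all regions: the median log2 change of all regions, 0.05 under TMM, was 0.41 when scaled to the kept regions and 0.25 when scaled to the sum of all counts. Regions called higher over both drugs, 3339 in all, were 5871 when scaled to the kept regions and 1915 when counted over the widest untreated peak. Regions called lower, 3451, were 1275 and 1395 under these settings and 2238 when scaled to the sum. The setting of untreated peaks holds only regions with such a peak, with TMM computed anew over them. Its counts of calls are thus out of fewer than 11943 regions. Counted over untreated peaks, 7 Hedgehog regions could be fitted. Under DRB 2 were called (Gli3 and Shh), against 4 in the main fit, and both were among those 4. Under triptolide 3 were called (Smo, Gli3 and Shh), against 5 in the main fit, and 2 were shared with it, Smo being a new call. Of the wider list, 15 genes were higher and 7 lower when scaled to the kept regions, and 14 higher when scaled to the sum. Signs turned in 3 genes. Scaled to the kept regions and counted over untreated peaks, Dhh had 0.09 and 0.05 over both drugs, 0.11 and 0.07 for DRB, and 0.08 and 0.02 for triptolide. In the same order Ptch1 had 0.16 and 0.11, 0.25 and 0.21, and 0.06 and 0.01, and for DRB 0.09 when scaled to the sum. Hhip had 0.14 and 0.10 over both drugs, 0.27 and 0.22 for triptolide, 0.02 for DRB when scaled to the kept regions, and 0.10 for triptolide when scaled to the sum. The median log2 change of kept regions over both drugs moved as well. It was -0.38 in the main fit, -0.02 when scaled to the kept regions, -0.07 over untreated peaks and -0.18 when scaled to the sum. The cause of the turned signs was not tested. Over settings that leave out 1 library, where a lone library is assumed to vary like the other groups, 5 to 6 Hedgehog regions were called over both drugs, 3 to 4 under DRB and 3 to 6 under triptolide. Of the wider list 6 to 11 genes were higher and 9 to 13 lower. Ptch1 under DRB ran from -0.26 to 0.08 and Hhip under triptolide from -0.32 to 0.10. With 2 libraries a group and 200 of 11943 simulated regions changed, the fit recovered 53.7% of 1.5-fold changes over both drugs. Far more regions were called in the data, so this share is not the recovery of the fit to the data. The changes at Dhh, Ptch1, Smo and Hhip were smaller than 1.5-fold, a size that was not simulated, and such changes can be missed. The triptolide libraries share replicate numbers, and deviations of same-numbered libraries correlated with 0.394, but with only 2 pairs they share a number and no more. For the DRB libraries of the same index the correlation was 0.375. With that number as a replicate block, 5 Hedgehog regions were called over both drugs, 4 under DRB and 5 under triptolide, and 3271 regions were higher and 3394 lower.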
